A study of Macaca fascicularis with 2 samples.

Results

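Cells with a high level of *HMOX1* were examined in single-cell RNA sequencing (scRNA-seq) data from articular cartilage (AC) and nucleus pulposus (NP) of cynomolgus monkeys. The HMOX1-high cells were selected on their *HMOX1* reads alone, as cells with 1000 or more *HMOX1* reads per 1000000 reads counted (rpm). They numbered 512 of 5311 cells, or 9.64% (95% exact binomial interval, 8.86% to 10.5%). The 5311 cells carried a single sample tag and had fewer than 5 reads of *KRT19*, a keratin that marks notochordal cells, and came from 5674 single-tag cells of 1 library. Because *HMOX1* chose the cells, its own difference is a description and supports nothing.

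The study asked how similar NP cells and articular chondrocytes are and which signals act on them. All cells came from male wild type cynomolgus monkeys, 3 years old. AC of the femoral condyle of 2 monkeys and NP of a lumbar disc of 1 of them were digested with enzymes, labelled with sample tags, sorted for live tagged cells and pooled into the 1 library. The labels do not say which of the 4 tags (A951 to A954) stands for which tissue or monkey, so the tags served only as 4 separate sets of cells within the library. No condition was compared, the number of replicates was 1, and no test was made. The library was read by TAS-seq, which sequences whole transcriptomes of single cells without molecular identifiers. Values are therefore reads, PCR copies included. Intervals cover counting error only and are too narrow even for that.

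*HMOX1* encodes heme oxygenase-1, the inducible enzyme that opens the haem ring and releases iron, carbon monoxide and biliverdin. Its gene is switched on by the transcription factor NRF2 and held down by BACH1, and it also responds to heat shock, heavy metals and inflammatory signals. In chondrocytes it is known as a cytoprotective gene. NRF2 drives a wider set of genes, among them *GCLM* for glutathione synthesis and *SRXN1*, *TXNRD1* and *NQO1* for the repair of oxidised proteins and quinones.

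*HMOX1* varied widely. Of the 5311 cells, 1589 (29.9%) had no read of it, 2017 (38.0%) had a level under 50 rpm, 467 (8.79%) lay between 50 and 250, and 726 (13.7%) between 250 and 1000. The HMOX1-high cells comprised 382 cells (7.19%) between 1000 and 3000 rpm and 130 cells (2.45%) at 3000 or more. Their median was 1927 rpm, with a lowest value of 1001 and a highest of 18534. The distribution had a low and a high hump, and the threshold crossed the high hump near its top. The last 5 cells outside had 991.9 to 999.6 rpm and the first cells inside had 1001 to 1004. There were 52 cells within 10% below the threshold and 43 within 10% above it.

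HMOX1-high cells were found under every tag at much the same share. They made up 86 of 921 cells of A951 (9.34%, 7.54% to 11.4%), 80 of 861 cells of A952 (9.29%, 7.44% to 11.4%), 128 of 1377 cells of A953 (9.30%, 7.81% to 11.0%) and 218 of 2152 cells of A954 (10.1%, 8.89% to 11.5%). These 4 intervals overlapped. Among the 363 cells with 5 or more *KRT19* reads, only 7 reached the same *HMOX1* level (1.93%, 0.779% to 3.93%). Their median cell had 3854 genes and 172935 reads, against 3819 genes and 199212 reads in cells under the *KRT19* limit.

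**Figure D1:**
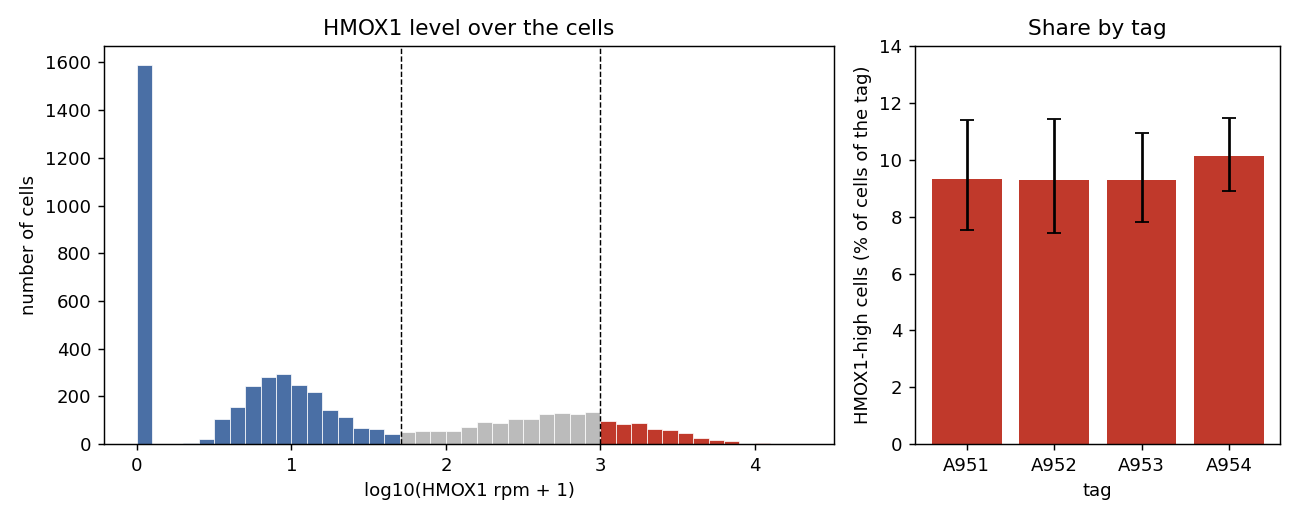
Left, number of cells (y axis) by *HMOX1* level (x axis, log10 of rpm plus 1), with dashed lines at 50 and 1000 rpm. Right, share of cells of each tag at 1000 or more (bars, with 95% exact binomial intervals). The threshold crosses the upper hump, and the 4 tags lie between 9.29% and 10.1%.

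To describe the other genes, each HMOX1-high cell was paired with a cell of the same tag with *HMOX1* under 50 rpm and a like number of genes detected. All 512 cells found a partner among 3606 such cells, and the partners are called matched cells. The medians of HMOX1-high and matched cells were 3851 and 3851.5 genes, 199370 and 208040 reads, and 1.40% and 1.44% mitochondrial reads. Reads were summed within each group and expressed as rpm. Differences are log2 ratios of HMOX1-high over matched cells, so that 1 is a 2-fold difference. A gene was called higher or lower when it differed at least 2-fold and had the same sign under all 4 tags. *HMOX1* itself stood at 2436 against 6.31 rpm (log2 ratio 8.59), and 59.6% of matched cells had at least 1 read of it.

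HMOX1-high cells carried the marker genes of chondrocytes. Summed over the 11 chondrocyte markers counted, they had 52191 rpm against 55558 in matched cells, and none of the 11 was at 0. *COL2A1*, the main cartilage collagen, was the most abundant and was detected in 100% of the cells of both groups. *ACAN*, the large cartilage proteoglycan, was detected in 99.6% of HMOX1-high and 100% of matched cells. They are therefore chondrocyte-like by these markers.

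Marker lists of other cell types were compared in the same way. The 12 macrophage markers counted summed to 25.7 against 27.4 rpm. Of these, *CD68*, a lysosomal protein also made by other cells, accounted for 22.7 against 18.9, and *FCER1G* was at 0 in HMOX1-high cells. Erythroid markers, of interest because red cells carry haem, summed to 0.189 against 0.287, with *AHSP* at 0 in matched cells.

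The sum of other leukocyte markers was 23.8 against 66.5 rpm, with *CD34* the most abundant at 13.0 against 15.9. Most of this gap lay in other markers than *CD34*. Under A953 the sum was 43.3 against 197. It was 18.9 against 23.3 under A951, 6.75 against 15.5 under A952 and 19.9 against 27.1 under A954. Endothelial markers summed to 5.14 against 7.35 and notochordal markers to 29.2 against 46.0. Fibroblast and annulus markers, led by *COL3A1* and with *PI16* at 0 in HMOX1-high cells, summed to 4056 against 4896 and were lower under every tag, with 3408 against 6080 under A951, 2501 against 4513 under A952, 5124 against 5701 under A953 and 4145 against 4161 under A954. Their part in the results below was not tested. Osteoblast and hypertrophic markers, nearly all *SPP1*, summed to 929 against 950.9, but differed both ways by tag, with 1204 against 108 under A952 and 923 against 1387 under A954. Osteoclast markers, nearly all *CTSK*, summed to 166 against 169. Only a few of these markers had reads in enough cells to be tested: 5 notochordal, 8 fibroblast and annulus, 2 macrophage, 2 other leukocyte, 2 endothelial, 2 osteoblast, 1 osteoclast and no erythroid gene. None of them was called. Leukocyte and notochordal marker sums were lower in HMOX1-high cells at a low level. Without cells that had 5 or more reads of *PTPRC*, *CD14*, *CD68*, *PECAM1* or *CDH5*, 457 pairs remained, and the heat shock, NRF2 and NF-kB medians described below were 0.58, 0.25 and -0.48. That filter did not use *CD34*, and *PTPRC* stood at only 0.412 against 0.674 rpm. The parts of other leukocyte and of notochordal markers were therefore not tested.

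Few genes differed between HMOX1-high cells and their partners. Of 9210 genes with a read in at least 10% of the cells, 94 (1.02%) were called higher and 69 (0.749%) lower. The median log2 ratio of all genes was 0.01, and 5% to 95% of genes lay between -0.66 and 0.69. A same sign under 4 tags, whatever the size, was seen above 0 in 8.01% and below 0 in 6.63% of the genes. These shares and those of the calls are the background for the counts given below. With calls this rare, a list without a call is not set apart from all genes by that.

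Most calls were genes with few reads. The level of the higher genes had a median of 7.86 rpm and that of the lower genes 8.09, against 29.0 for all genes tested. Under 50 rpm lay 91 of the 94 and 62 of the 69. At 50 rpm or more, 3183 genes were tested, with 5% to 95% of them at log2 ratios between -0.34 and 0.42. Of the 3183, 10 were called. The 3 higher were *HSPH1*, *SLC30A1* and *KLF10*. The 7 lower were *FOS*, *CCL2*, *NOS2*, *PTX3*, *ICAM1*, *TNFAIP6* and *LRFN5*. *LRFN5*, at 78.5 against 157, stayed at 2-fold or more in 10 of 18 alternatives, down to -0.71. The results therefore turn on these genes and on related genes of high level.

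**Figure D2:**
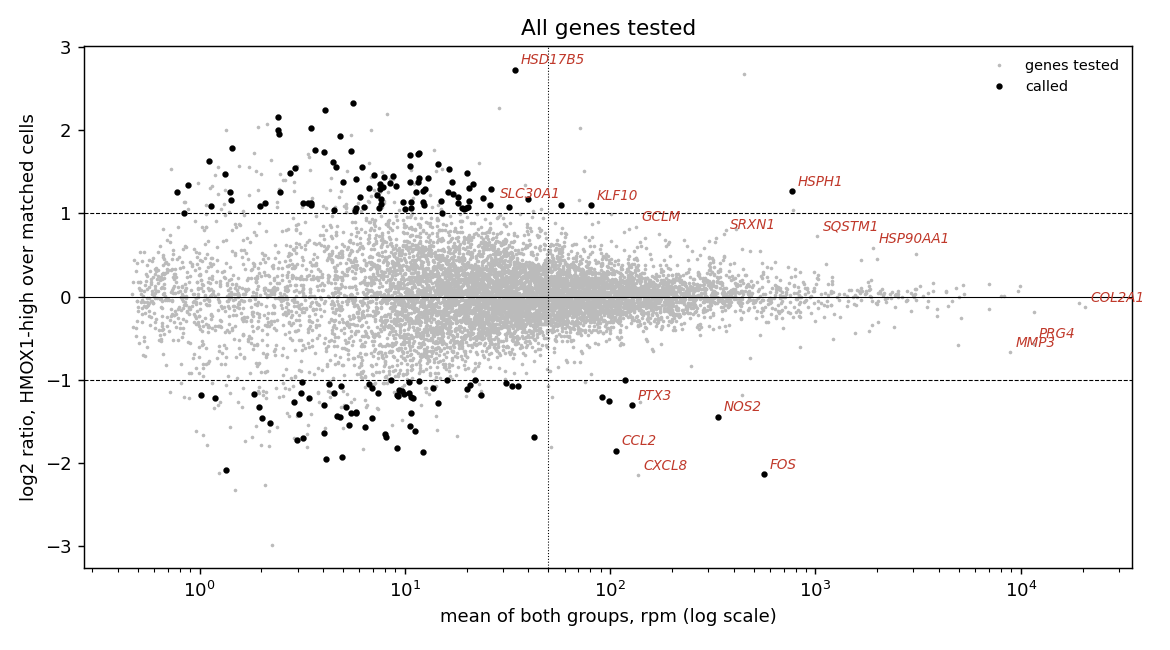
Log2 ratio of HMOX1-high over matched cells (y axis) against the mean level of the groups (x axis, rpm, log scale) for the 9210 genes tested. Black points are the 94 genes called higher and the 69 called lower, dashed lines mark 2-fold differences and the dotted line marks 50 rpm. Most called genes lie left of the dotted line, and 10 lie to the right of it.

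Heat shock genes stood out among the lists. These encode chaperones that refold damaged proteins and are switched on by HSF1. Of 17 tested, 1 was called higher (against 1.02% of all genes) and none lower. The median log2 ratio was 0.56 against 0.01 for all genes. In this list 15 were above 0, and 8 were above 0 under all 4 tags (against 8.01% of all genes). Under A951 to A954 the medians were 0.39, 0.19, 0.09 and 0.72, and the median was 0.17 when A954 was left out. *HSPA1A* and *HSPA1B*, the classic inducible members, were not among the genes counted.

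*HSPH1*, a large chaperone that recharges HSP70, was the abundant gene with the largest higher call. It had 559 rpm in HMOX1-high against 344 in matched cells under A951, 499 against 251 under A952, 580.0 against 423 under A953 and 1705 against 565 under A954. Each tag was higher in the HMOX1-high cells, although the ranges of the 4 values overlapped, and A954 was far above the rest. Over all pairs it stood at 1090.3 (1084 to 1096) against 454 (449.8 to 457), a 2.40-fold difference, and without A954 the log2 ratio was 0.63, under the 2-fold limit. The median cell had 78.8 against 34.8 rpm and the cell at the 90th percentile 2272 against 814. HMOX1-high cells were above their partners in 282 pairs and below in 213, and the rest were tied.

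*BAG3*, the cochaperone that steers damaged proteins to autophagy, gave a more even difference. Its levels were 465 against 259.5 under A951, 403 against 291 under A952, 369 against 313 under A953 and 654 against 304 under A954. All 4 values of HMOX1-high cells lay above all 4 of matched cells. The log2 ratio was 0.81, below the 2-fold limit, and 0.48 without A954, and the HMOX1-high cell was the higher one in 296 pairs and the lower one in 199.

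The cytosolic HSP90 genes had smaller log2 ratios, and neither was called. *HSP90AA1*, the inducible form, stood at 2289 against 1527 rpm (log2 ratio 0.58, above 0 under 4 tags, and 0.31 without A954). *HSP90AB1*, the constitutive form, stood at 1917 against 1408 (0.44, above 0 under 4 tags) and was higher in 314 pairs and lower in 198. *DNAJA1* (0.54) and *CHORDC1* (0.55), both cochaperones, and *FKBP4* (0.76), an HSP90 partner, were also above 0 under every tag. *DNAJB1*, a HSP40 cochaperone, had a log2 ratio of 0.81 but was below 0 under A953. Over 18 alternatives its log2 ratio ranged from 0.16 to 1.53. The small heat shock gene *CRYAB* (0.58) was below 0 under A953 too.

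NRF2 target genes showed a smaller difference. None of 28 tested was called, the median log2 ratio was 0.26, and 20 were above 0. Under all 4 tags 6 were above and 1 below 0 (against 8.01% and 6.63% of all genes). Under A951 to A954 the medians were 0.01, 0.19, 0.24 and 0.14, all below the pooled one, and the median was 0.10 without A953. *GCLC*, *TXN*, *FTL* and *FTH1* were not among the genes counted. Several of the abundant members, though not called, were higher in more pairs than they were lower.

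*SRXN1* encodes sulfiredoxin, which repairs oxidised peroxiredoxins. Its levels were 506 against 268 rpm under A951, 393 against 345 under A952, 411 against 165 under A953 and 467 against 302 under A954. The HMOX1-high values did not overlap the matched ones. Over all pairs it had 450.2 (446 to 454) against 268 (265 to 271), a log2 ratio of 0.75. The median cell had 139 against 19.8, and the HMOX1-high cell was higher in 275 pairs and lower in 196.

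*GCLM* encodes the modifier subunit of the enzyme that limits glutathione synthesis. Its levels were 131 against 74.5 under A951, 159 against 140.2 under A952, 221 against 92.9 under A953 and 163 against 93.2 under A954. Every tag was higher, and 1 matched value lay above the lowest HMOX1-high value. The log2 ratio was 0.84, with 172 against 96.1 over all pairs, and the HMOX1-high cell was higher in 269 pairs and lower in 172.

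*SQSTM1*, the autophagy receptor p62, which also binds KEAP1 and is an NRF2 target, had the most cells on 1 side in this list. Its levels were 984 against 800.4 under A951, 1065 against 692 under A952, 1593 against 802 under A953 and 1267 against 762 under A954, with no overlap. The log2 ratio was 0.73 (1275 against 769), the median cell had 746 against 369, and 304 pairs were higher against 206 lower. Over the 9210 genes, higher pairs less lower pairs had a median of 1, with 5% to 95% of genes between -29 and 34, and *SQSTM1* stood at 98, *BAG3* and *GCLM* at 97, *HSPH1* at 69 and *SRXN1* at 79.

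Other NRF2 targets were less even. *TXNRD1*, thioredoxin reductase, had a log2 ratio of 0.66 and was below 0 under A952. *MAFG*, the small MAF partner of NRF2, stood at 0.61, above 0 under every tag. *PRDX1*, a peroxiredoxin, stood at 0.25. *NQO1* (0.60) and *OSGIN1* (0.55) were above 0 under 2 tags only. The cystine carrier gene *SLC7A11* stood at 12.6 against 13.5 rpm, with log2 ratios of -1.18, -1.11, -0.07 and 0.31 under A951 to A954.

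The regulators themselves differed little. *NFE2L2*, which encodes NRF2, had a log2 ratio of 0.27, *KEAP1*, its inhibitor, 0.13 and *BACH1* -0.20. *HMOX2*, the constitutive heme oxygenase, stood at 35.7 against 24.4 rpm (0.55). Its log2 ratio was -0.12 under A951 and 1.85 under A952, and 139 pairs were higher and 133 lower.

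The remaining steps of haem and iron handling did not move as a group. None of 22 genes was called, and their median was -0.02, with 10 above 0. *BLVRA*, which reduces biliverdin, had a log2 ratio of 0.18. *BLVRB*, the second biliverdin reductase, stood at 0.65 but above 0 under 2 tags only. *SLC48A1*, a haem transporter of the lysosome, stood at 0.57 and above 0 under 4 tags, but 106 pairs were higher and 107 lower. The iron exporter gene *SLC40A1* stood at 0.29, and the transferrin receptor gene *TFRC* at 0.19.

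*SLC30A1*, the zinc exporter switched on by MTF1 when zinc is high, was called higher. Its levels were 48.4 against 29.6 rpm under A951, 46.5 against 17.2 under A952, 60.9 against 27.9 under A953 and 107 against 49.4 under A954. Every tag was higher with some overlap, the pooled levels were 78.7 (77.1 to 80.3) against 36.7 (35.7 to 37.9), and 34.6% against 26.8% of cells had a read. The 5 cells with the most reads held 25.8% of the reads in HMOX1-high cells and 39.4% in matched cells. The log2 ratio was 1.10, and 1.39 without those cells. It stayed at 2-fold or more in 13 of 18 alternatives and was lowest, at 0.74, with members from 2000 rpm. *MT1E*, a metallothionein, stood at 3620 against 2546 (0.51, above 0 under 4 tags), but its median cell had 723 against 750.5. The median of the 3 genes of this list was 0.51.

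**Figure D3:**
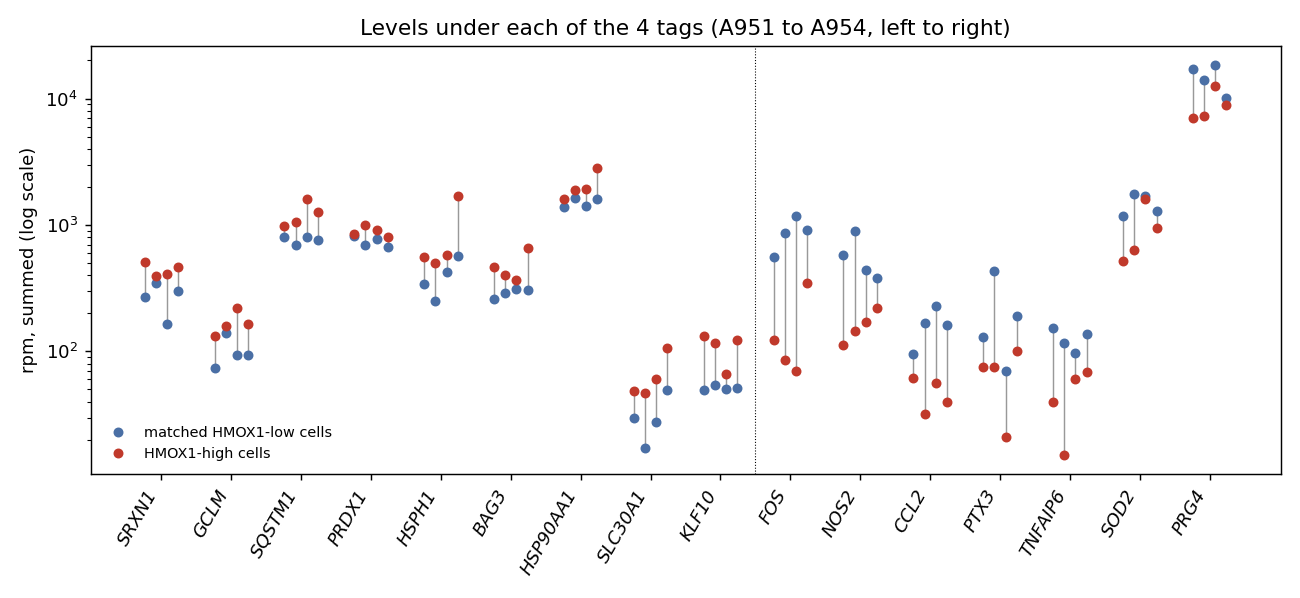
Summed rpm (y axis, log scale) of 16 genes in HMOX1-high cells (red) and matched cells (blue), with a line joining the groups of each tag in the order A951, A952, A953, A954. The 9 genes left of the dotted line are higher and the 7 to the right are lower in HMOX1-high cells under every tag.

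Among immediate early genes, which respond to signals within minutes, 1 of 22 was called higher and 1 lower. Over all genes the shares were 1.02% and 0.749%, and the median of the list was 0.08. *KLF10*, a TGF-beta-inducible repressor, was the higher gene, with 131 against 49.9 rpm under A951, 117 against 54.3 under A952, 66.8 against 50.6 under A953 and 122 against 51.4 under A954. These ranges did not overlap, and the log2 ratio was 1.09, and 0.94 without A954. It was 0.72 with partners matched without regard to the tag.

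*FOS*, a subunit of the AP-1 factor, was the lower gene. Its levels were 122 against 558 under A951, 85.2 against 864 under A952, 69.8 against 1188 under A953 and 347 against 919 under A954. The 4 values did not overlap, and the pooled difference was 4.39-fold (209 against 919). The log2 ratio was -2.13, and -3.36 without A954. The median cell hardly differed, however. The median was 19.3 against 20.0, and 5 cells held 47.1% and 48.3% of the reads of the groups. By pairs, 233 were higher and 268 lower. That is a net of -35, below the range of 5% to 95% of all genes (-29 to 34). The larger difference lay in the upper cells, with 90th percentiles of 340 against 813. *JUN*, the other AP-1 subunit, had a log2 ratio of -0.74, below 0 under 4 tags, but 266 pairs were higher and 237 lower. *FOSB*, a relative of *FOS*, went the other way in its sum, with 158 against 89.8 rpm (log2 ratio 0.81, below 0 under A953) and 226 pairs higher and 152 lower.

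NF-kB and inflammatory genes were the list with the lowest median, at -0.44. Of 22 tested, 4 were called lower (against 0.749% of all genes) and none higher. In this list 19 were below 0, and 7 were below 0 under all 4 tags (against 6.63% of all genes). The median was -0.28 without A952.

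*NOS2*, the inducible nitric oxide synthase, had 113 against 575 rpm under A951, 146 against 900.3 under A952, 172 against 439 under A953 and 219 against 378 under A954. These ranges did not overlap. The pooled log2 ratio was -1.44 (181 against 492), with 90th percentiles of 245 against 1256. By pairs, 217 were higher and 247 lower, a net of -30 against a 5th percentile of -29 for all genes. As with *FOS*, the medians were close, at 6.08 against 7.47.

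The other called genes of the list were also lower under every tag. *CCL2*, a monocyte chemokine, stood at 46.4 against 168 (log2 ratio -1.85), with 5 cells holding 58.7% and 51.8% of its reads. Its pairs were close to even, with 128 higher and 144 lower. *ICAM1*, an adhesion molecule, stood at 57.9 against 138 (-1.26, and -0.87 without A951), although 189 pairs were higher and 181 lower. *TNFAIP6*, a hyaluronan-binding protein of inflamed cartilage, stood at 55.3 against 127.5 (-1.20), with 144 pairs higher and 188 lower, and at -0.98 with partners matched without regard to the tag and -0.87 without matching.

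*PTX3*, a secreted pattern recognition protein outside the list, stood at 73.7 against 183 (-1.31, and -0.99 without A952), with 188 pairs higher and 188 lower. *SOD2*, the mitochondrial superoxide dismutase and an NF-kB target, stood at 1004 against 1427 (-0.51, below 0 under 4 tags), with 256 pairs higher and 255 lower. For *ICAM1*, *PTX3* and *SOD2* about as many pairs were higher as lower. The median cell of *SOD2* had 233 against 291.

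The chemokine genes *CXCL8* and *CXCL1* had most of their reads in a few cells. *CXCL8* had a log2 ratio of -2.15, but was above 0 under A951 and A953, and 163 pairs were higher and 163 lower. The 5 cells with the most reads held 74.7% and 66.1% of its reads, and without them the log2 ratio was -2.57. Only 5 cells held 95.8% and 97.9% of the *CXCL1* reads of the groups. Its log2 ratio was -1.81 with and -0.84 without those cells. Neither was called.

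The same genes were followed over the *HMOX1* level, counting all cells within the range of genes detected in HMOX1-high cells. From cells without a read of *HMOX1* through the 5 higher bins, *HSPH1* stood at 321, 324, 688, 847, 1036 and 1269 rpm. *BAG3* stood at 268, 284, 351, 443, 499 and 595. Both were above the lowest bins from 50 rpm of *HMOX1* on. *FKBP4*, at 53.8, 47.0, 52.3, 66.8, 72.2 and 73.0, was so only from 250 on. *SQSTM1* stood at 756, 728, 922, 989, 1219 and 1461.

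*GCLM* stayed level longer, at 95.9, 88.9, 97.8, 125, 153 and 233. *SRXN1* went from 238 and 270.4 to 287, 329, 419 and 551. *OSGIN1* reached 113 in the top bin and lay between 41.1 and 65.9 in the others. *SLC30A1* stood at 31.4, 34.6, 61.8, 74.8, 73.5 and 95.5.

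Inflammatory genes were less regular. *NOS2* stood at 445, 430.4, 435, 293, 181 and 181. *CCL2* stood at 203, 134, 41.6, 85.3, 35.4 and 82.2, and *ICAM1* at 134, 116, 60.6, 60.9, 65.5 and 33.2. *CXCL8* went from 353 to 18.3. *FOS* was uneven, at 720, 571, 368, 493, 218 and 182. Relative to cells without a read, the heat shock list had medians of 0.02, 0.40, 0.45, 0.63 and 0.77 over the 5 bins. The NF-kB list had -0.14, -0.25, -0.36, -0.52 and -0.60, and the NRF2 list -0.04, 0.07, 0.09, 0.18 and 0.26. *COL2A1* went only from 20204 to 18032. Cells of the bins shared 1 library, and those of the middle bins had more genes detected, with medians of 3127, 4089, 4557, 4196, 3916 and 3583.5. The part of depth in these trends was not tested.

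**Figure D4:**
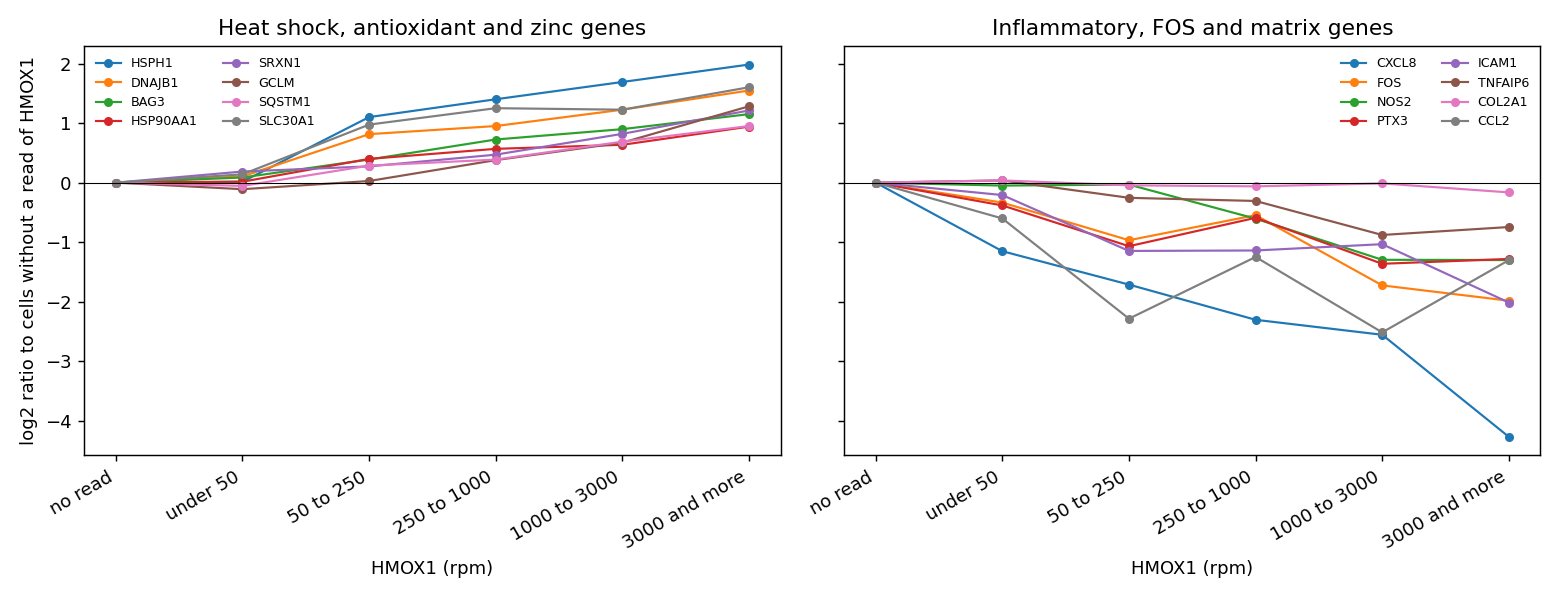
Log2 ratio of summed rpm to cells without a read of *HMOX1* (y axis) over 6 bins of *HMOX1* level (x axis, rpm), for heat shock, antioxidant and zinc genes (left) and inflammatory, *FOS* and matrix genes (right). *HSPH1* goes from 321 to 1269 rpm, *CCL2* and *FOS* go up and down between bins, and *COL2A1* stays between 18032 and 20731.

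The HMOX1-high cells were also divided at 3000 rpm. The 382 pairs between 1000 and 3000 rpm gave heat shock, NRF2 and NF-kB medians of 0.47, 0.18 and -0.30, and the 130 pairs at 3000 or more gave 0.68, 0.37 and -0.79. The partners of the sets were different cells and differed too. *HSPH1* stood at 1036 against 495 in partners in the lower set and at 1269 against 322 in the upper. Part of its change in ratio therefore lay in the partners. The partners of *HSP90AA1*, at 1511 and 1581, did not fall. *GCLM* stood at 153 against 97.8 in partners in the lower set and at 233 against 90.6 in the upper. *OSGIN1*, an NRF2 target that restrains growth, stood at 65.9 against 60.3 and at 113 against 27.8. *NOS2* was alike in HMOX1-high cells of the sets, at 181 and 181, while the partners stood at 439 and 663. *ICAM1* stood at 65.5 against 92.8 and at 33.2 against 284, so that most of its change in ratio lay in the partners. *CCL2* was higher in the upper set (35.4 and 82.2), and its log2 ratio went from -2.00 to -1.61.

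No cartilage matrix gene reached the call, which only 1.02% (higher) and 0.749% (lower) of all genes did. Of 31 tested, the median was -0.05, and 1 was above and 7 below 0 under all 4 tags, against 8.01% above and 6.63% below for all genes. *COL2A1* stood at 19556 against 21335 rpm (log2 ratio -0.13) and *ACAN* at 3713 against 4116 (-0.15). *SOX9*, the transcription factor that maintains chondrocytes, stood at 0.19.

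*PRG4*, the lubricin of the cartilage surface, was lower below the 2-fold limit. Its levels were 7024 against 17259 under A951, 7262 against 14036 under A952, 12555 against 18283 under A953 and 8967 against 10087 under A954. Each tag was lower, with overlap between tags. The log2 ratio was -0.56, the median cell had 2929 against 5753, and 208 pairs were higher and 304 lower.

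*HAPLN1*, the link protein that ties aggrecan to hyaluronan, had a log2 ratio of -0.30 with 199 pairs higher and 313 lower, the most cells on the lower side of any gene tested. *MATN4*, a matrilin, stood at -0.89 and was also lower under 4 tags. Over 18 alternatives its log2 ratio ranged from -1.48 to -0.24. *MMP3*, a matrix protease, stood at 6820 against 10863 (-0.67), and its 4 values did not overlap. None of 24 matrix proteases and inhibitors was called, with a median of 0.00. The 19 cartilage transcription factors and receptors had a median of 0.04 and no call.

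None of 25 integrated stress and unfolded protein genes was called. Their median was 0.15, 22 were above 0, and 5 were above 0 under 4 tags, against 8.01% of all genes. *ATF4*, the central factor, stood at 0.04, *DDIT3* at -0.01, *CHAC1* at -0.08 and the chaperone gene *HSPA5* at 0.15. *HERPUD1*, a gene of protein disposal at the endoplasmic reticulum, stood at 0.26, above 0 under 4 tags. *CRELD2*, a secreted chaperone gene, stood at 20.8 against 9.35 rpm (1.16) but below 0 under A951. *PPP1R15A*, which restarts translation, stood at 417 against 298 (0.48), without overlap of the tags. The 11 p53 and growth arrest genes had a median of 0.13 and no call.

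Housekeeping lists lay near the median of all genes. Proteasome, ubiquitin and autophagy genes had a median of 0.02 (36 tested), oxidative phosphorylation genes 0.04 (39), ribosomal protein genes 0.04 (60, selected by symbol, with related kinases) and mitochondrial genes -0.04 (11). Hypoxia and glycolysis genes had -0.07 (26), with *HIF1A* at -0.16, and ferroptosis and lipid peroxide genes -0.05 (17). No gene of these 6 lists was called. Of 5 proliferation genes tested (median 0.04), *CENPF* was called lower, at 2.07 against 7.83 rpm. It was nevertheless detected in 12.3% against 9.57% of cells and higher in 59 pairs against 44, with 66.4% and 70.6% of its reads in 5 cells. The cells had been named stress cells, and of the stress lists those of heat shock, of metallothionein and zinc, and of NRF2 targets had the highest medians.

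**Figure D5:**
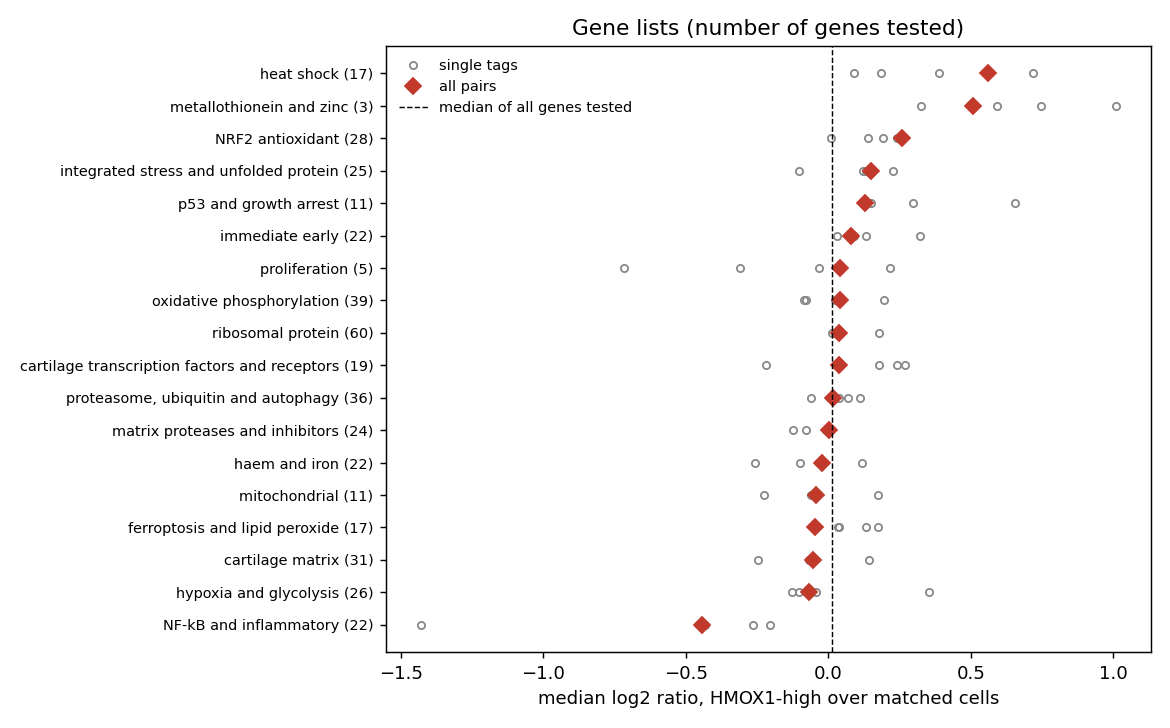
Median log2 ratio of HMOX1-high over matched cells (x axis) for the 18 gene lists (y axis, number of genes tested in brackets), over all pairs (diamonds) and under each tag (open circles). The dashed line is the median of all genes, 0.01. Heat shock (0.56) lies highest and NF-kB and inflammatory genes (-0.44) lowest.

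The 20 largest higher calls with more cells detected were all genes of low level, 13 of them under 10 rpm, with log2 ratios of 1.46 to 2.72. They were *HSD17B5*, *PTGER3*, *RHPN2*, *MAP1B*, *CPA6*, *SLC16A14*, *SH3TC2*, *TMEM104*, *GRAMD2A*, *ADAMTS17*, *BMERB1*, *RASGEF1A*, *ABHD5*, *CBFA2T2*, *TRIM36*, *RWDD2A*, *COX4I2*, *SORD*, *NCEH1* and *CASP9*. The first of them, *HSD17B5*, had 59.9 against 9.07 rpm. Under A953 it had 147 against 6.24 and under A951 5.81 against 4.85, with 57.8% of its reads in 5 HMOX1-high cells. It belongs to the aldo-keto reductases, a family with close copies between which reads could be split, so the value is uncertain. Such splitting was not measured. Without the 5 cells with the most reads of each gene, 14 of the 20 kept a 2-fold difference.

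The 20 largest lower calls with fewer cells detected had log2 ratios of -2.13 to -1.44. They were *FOS*, *ABCA7*, *DMTN*, *B3GALNT2*, *CCL2*, *DLG5*, *ANKRD31*, *GSTCD*, *GAST*, *C10orf88*, *AP3M2*, *WASF3*, *FGF13*, *RTTN*, *BCDIN3D*, *RIMS1*, *FAM117B*, *RALGAPA2*, *NOS2* and *TTC39C*. All but 3 lay under 50 rpm, and 15 kept a 2-fold difference without those cells. Which of the low genes were called depended on the cells drawn for comparison. Matching without regard to the tag gave 109 higher genes, of which 34 were shared, and 78 lower genes, of which 19 were shared.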

How the data were processed

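The authors made the deposited counts, whole reads per gene and cell, by mapping TAS-seq reads with HISAT2 2.2.1 and assigning them with featureCounts 2.0.2 (versions from the submitters' processing notes) over whole genes, by strand, with reads of several genes allowed. Spliced and unspliced reads were combined. The genome build is not given in the sources used here. Of 5723 cell columns, 49 marked as doublets or without a tag were not used. Doublets within a tag were not removed. Another deposited matrix, which no label names, was not analysed here. Cells had 24907 to 1649566 reads, and no cell barcode was shared between columns. A group under 3 reads was set at 3 reads. Genes were named as the 20 largest calls in each direction whose share of cells with a read differed the same way, up to 4 called genes of each of the 18 lists and the best known members of the lists. Other genes were chosen after their values were seen. At 50 rpm and over, genes with 1 sign in the 4 tags were taken beyond a ratio limit set short of 2-fold. Genes of that level without 1 sign were taken at 2-fold or more. Those with the most pairs on 1 side were added. The members and gene lists were chosen with earlier results of these data known. Promoter motifs were not examined. Python 3.11.15 was used with numpy 2.4.6, scipy 1.17.1, pandas 2.3.3 and matplotlib 3.10.9. Code was tested on simulated data. Alternatives were the choice of partners, thresholds, filters, thinning and leaving out tags. The limit of 50 rpm and the removal of 5 cells were added after seeing the data.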

Additional observations from a re-analysis of the deposited data

How the results depend on the processing

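The 94 higher and 69 lower calls changed with most settings. Without matching there were 25 higher and 91 lower genes. With members from 500 rpm there were 36 higher and 35 lower genes, and from 2000, with fewer cells, 183 and 133. Genes detected in 25% of cells gave 21 and 17, genes with any read 212 and 158, detection from 5 reads 8 and 10, thinning to 50000 reads 40 and 27, and a level of at least 50 rpm 3 and 7. Leaving out a tag in turn, which asks for 1 sign in fewer tags, gave 152 to 213 higher and 105 to 200 lower genes. The share of HMOX1-high cells was 17.0% from 500 and 4.52% from 2000 rpm. The heat shock median was 0.88 when partners were matched without regard to the tag, and leaving out a tag gave 0.17 (without A954) to 0.63. The NRF2 median without a tag was 0.10 (without A953) to 0.28. *MAP1B* turned to -1.07 with partners matched without regard to the tag, *ANKRD31* to 0.19 with partners matched on reads, and *NCEH1* to -0.16 with members from 500 rpm. The causes were not tested. *KLF10* stayed at 2-fold or more in 12, *PTX3* in 14, *ICAM1* and *TNFAIP6* in 16 and *HSPH1* in 17 of 18 alternatives. Without cells with reads of other cell types there were 101 higher and 91 lower genes, of which 57 and 37 were shared. Over 18 alternatives the heat shock median stayed at 0.17 to 0.88, the NRF2 median at 0.10 to 0.33, the NF-kB median at -0.80 to -0.28 and the cartilage matrix median at -0.11 to 0.01. *HSPH1* ranged from 0.63 to 1.93, *SQSTM1* from 0.60 to 0.83, *SRXN1* from 0.52 to 0.96, *FOS* from -3.36 to -1.25 and *NOS2* from -2.00 to -1.13. With 1 library, differences between animals or tissues cannot be told apart from those between cells.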

Other observations

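Some genes of 50 rpm and over, chosen after their values were seen, were higher in HMOX1-high cells under all 4 tags without reaching 2-fold. They included *ELF4*, an ETS transcription factor (log2 ratio 0.99, 234 pairs higher and 146 lower), *FOXP4* (0.87), *ZMYM5* (0.83), *CFAP20* (0.78), *MSI1* (0.77) and *GBF1* (0.75). On the lower side were *CD52* (-0.92), *RRP7A* (-0.85), *PLAT*, the tissue plasminogen activator (-0.79) and *MRPS24* (-0.78). Counted by pairs, the gene with the most cells on the higher side was *SLC7A5*, a carrier of large neutral amino acids, with 315 pairs higher and 195 lower at a log2 ratio of 0.30. Its partner chain *SLC3A2* had 293 higher and 216 lower (0.35). *HAPLN1*, *PRG4* and *BGN*, the small proteoglycan biglycan (212 higher and 300 lower, log2 ratio -0.19), had the most cells on the lower side.

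Other abundant genes had large ratios that changed sign between tags. *IGFBP5*, a secreted binding protein of insulin-like growth factors, stood at 778 against 122 rpm (log2 ratio 2.67), but at -3.09 under A952. Its medians per cell were 7.33 and 6.72, and 259 pairs were higher and 202 lower. *MYOC*, a secreted glycoprotein, stood at 115 against 28.2 (2.03) and at -3.42 under A952, with 109 pairs higher and 87 lower. *CYP1B1*, a cytochrome P450, stood at 1048 against 512 (1.03), at -0.01 under A951 and at -1.07 under A952. It was higher in 274 pairs and lower in 217.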
